A study of Homo sapiens with 6 samples.

Results

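The tumor necrosis factor (TNF) and TNF receptor superfamilies were examined in BT549, an established basal-like breast cancer (BBC) cell line, after treatment with AS1842856, a small molecule that binds FOXO1 and blocks its contact with DNA. Members were genes whose symbols name a ligand or a receptor of the family, which gave 46 of the 58735 genes in the count table: 17 ligands, 8 receptors with a death domain, 4 decoy or soluble receptors and 17 receptors without a death domain. The family was picked because TNFRSF19 had the smallest p-value of all genes in the comparison described here, so the values of TNFRSF19 are given as a description with no test, and it is left out of the counts of members called. The study compared 3 RNA-Seq libraries of BT549 cells given the DMSO vehicle with 3 libraries of cells given AS1842856, 48 h after treatment began, and the labels name no other agent or allele in either group. The labels give a concentration of 200 nM and the study's text gives another, a difference that could not be resolved here. All libraries came from 1 established cell line grown on dishes, and the study's text calls them biological replicates.

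Ligands of the family are mostly membrane proteins that act as trimers, and some are released from the cell surface by proteases. They bind receptors that carry no enzyme activity of their own. Receptors with a death domain can assemble adaptor proteins that activate caspases, and both classes of receptor recruit TRAF proteins that lead to NF-kB and to stress kinases. Decoy receptors bind ligand and pass on no death signal or no signal at all. In breast epithelium the family is best known for the RANK receptor, TNFRSF11A, which drives the growth of the mammary gland, and for death receptors that bind TRAIL.

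Library totals ran from 15289500 to 22981832 counts. BT549 is a mesenchymal line, and its markers VIM, CDH2 and SPARC summed to 2584 to 2669 CPM (counts scaled to the size of the library) in DMSO and 1989 to 2027 with AS1842856. ESR1, PGR, CDH1 and EPCAM had at most 8 counts in any library, while ERBB2, KRT8 and KRT18 were present with all treated libraries below the controls, and the 7 markers of this second list summed to 117 to 126 CPM in DMSO and 31.1 to 34.5 with AS1842856. The 6 leukocyte markers summed to 1.02 to 2.15 CPM in DMSO and 3.54 to 4.65 with AS1842856, of which PTPRC had 13 to 26 counts in DMSO and 44 to 74 with AS1842856, while CD3E and MS4A1 were at 0 in all 6 libraries.

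The promoters of a few members are shown first, because TNFRSF19 has the highest fitted fold among tested members and 2 annotated start sites, TNFSF9 is the ligand with the largest fall, and TNFRSF9 is its receptor and the only one of the 3 genes with a searched motif. RefSeq sequences of GRCh38.p14, each running from 250 bases before to 50 bases after a start site, were matched to 30 of the 46 members and gave 41 promoters. The 250 bases before the start are printed 5′ to 3′ on the strand of the gene, and capitals mark letters of a searched motif. The upstream start of TNFRSF19 is on the plus strand at chr13:23570162-23570411, its downstream start on the plus strand at chr13:23579110-23579359, that of TNFSF9 on the plus strand at chr19:6530776-6531025 and that of TNFRSF9 on the minus strand at chr1:7940840-7941089.
TNFRSF19 upstream start: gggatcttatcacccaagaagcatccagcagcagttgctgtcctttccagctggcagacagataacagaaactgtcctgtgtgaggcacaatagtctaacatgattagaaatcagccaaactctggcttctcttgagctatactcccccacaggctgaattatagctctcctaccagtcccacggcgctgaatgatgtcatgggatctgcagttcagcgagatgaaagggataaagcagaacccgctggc
TNFRSF19 downstream start: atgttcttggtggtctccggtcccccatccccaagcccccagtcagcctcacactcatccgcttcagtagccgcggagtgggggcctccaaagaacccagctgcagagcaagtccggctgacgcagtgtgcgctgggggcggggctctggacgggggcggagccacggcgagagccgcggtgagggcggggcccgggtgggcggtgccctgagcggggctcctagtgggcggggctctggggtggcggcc
TNFSF9: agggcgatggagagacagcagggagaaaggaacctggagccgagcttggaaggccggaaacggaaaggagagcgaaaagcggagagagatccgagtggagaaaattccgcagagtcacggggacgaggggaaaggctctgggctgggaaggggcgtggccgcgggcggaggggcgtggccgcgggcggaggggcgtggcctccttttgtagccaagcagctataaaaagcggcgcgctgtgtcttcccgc
TNFRSF9: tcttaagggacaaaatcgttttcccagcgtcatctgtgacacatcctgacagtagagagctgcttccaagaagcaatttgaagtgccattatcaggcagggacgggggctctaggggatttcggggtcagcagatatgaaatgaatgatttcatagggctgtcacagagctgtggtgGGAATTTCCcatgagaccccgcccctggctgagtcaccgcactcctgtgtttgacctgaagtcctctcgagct
The start sites of TNFRSF19 differed in base composition. Over 300 bases the upstream promoter had 49.0% GC with 4 CpG dinucleotides and the downstream one had 72.7% GC with 27, against medians of 58.7% and 14 over all 35116 promoters of that length. The counts are per gene and do not tell the starts apart. Annotated exons of GENCODE 29 covered 42 of the printed bases at the upstream start of TNFRSF19, 1 at its downstream start, 27 at TNFSF9 and 94 at TNFRSF9.

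Motifs were searched on both strands of the promoters. The FOXO core GTAAACA was in 3.42% of all promoters and, among members, in the 2 overlapping promoters of the ligand gene LTB. The TCF/LEF core, CTTTGAT or CTTTGAA, was in 6.86% of all promoters and in 7 of the 41 member promoters, which belonged to TNFSF11 and, with 2 overlapping windows each, to EDA2R, FAS and TNFSF13B. An NF-kB motif, GGACTTTCC, GGAATTTCC or GGAAATTCC, was in 0.829% of all promoters and in 3 member promoters, those of LTB and TNFRSF9. GGAATTTCC and GGAAATTCC are reverse complements of each other, so the capitals in TNFRSF9 mark 1 place, 73 bases before the start. None of these letters were in either promoter of TNFRSF19 or in that of TNFSF9. Such matches are a description of these windows only.

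To ask which members answered to AS1842856, counts were fitted over all genes with edgeR's quasi-likelihood test, with an adjusted p under 0.05 as the threshold and DMSO as the base of every fold change. A gene was tested where at least 3 libraries reached about 0.548 CPM, and 18 of the 46 members passed. Without TNFRSF19, 14 of 17 tested members (82.4%) passed, 8 of them higher after treatment and 6 lower. Over all 14338 genes tested, 56% were called, 27.6% higher and 28.4% lower. Changes of at least 1 on the log2 scale were found in 8 of the 17, and in 10.6% of all genes. Groups did not overlap for 13 of the 17, and for 59.9% of all genes, made up of 29.5% higher and 30.3% lower. The median log2 fold change was -0.02 for the 17 members and 0.003 for all genes, so members moved in both directions. TNFSF4 met the filter in 2 DMSO libraries and 3 AS1842856 libraries, and so passed through its treated group. Without it 13 of 16 members were called, 7 higher and 6 lower. Of those 16, 7 had called changes of at least 1 on the log2 scale, and groups did not overlap for 12. Their median log2 fold change was -0.0477. RNA was taken from whole dishes, in which fewer cells of a kind and less RNA per cell cannot be told apart.

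**Figure D1:**
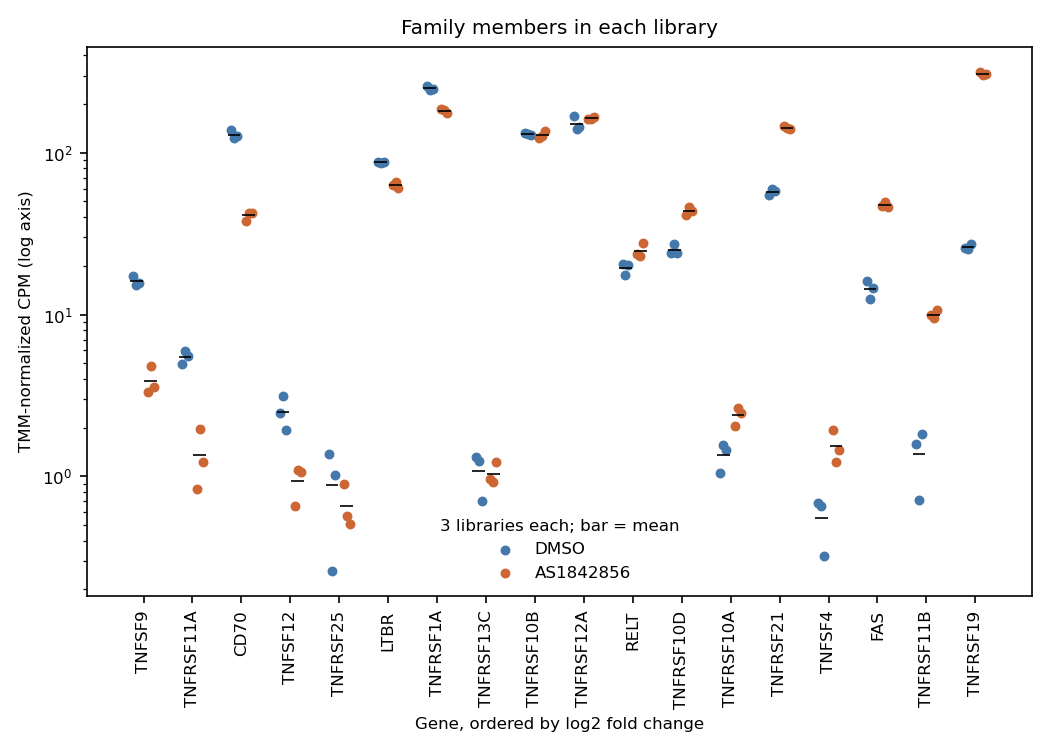
TMM-normalized CPM (log axis) of the 18 tested members in each of 3 DMSO and 3 AS1842856 libraries, ordered by log2 fold change, with bars at group means. TNFSF9, TNFRSF11A, CD70 and TNFSF12 lie lower with AS1842856 at the left, and FAS, TNFRSF11B and TNFRSF19 lie higher at the right.

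TNFRSF19 (ENSG00000127863, chromosome 13 from 23570370 to 23676104), also called TROY, is a receptor without a death domain that can stand in for NGFR in the Nogo receptor complex of neurons and is a known target of WNT signaling. It had 25.8, 25.5 and 27.1 CPM in DMSO libraries A, B and C and 316, 304 and 306 CPM in AS1842856 libraries A, B and C. Every treated library lay above every control library, and libraries within a group differed little. The ratio of the means was 11.8 and the log2 fold change was 3.56, with a range of 3.54 to 3.58 when each library was left out in turn. Its reads were not shared with other genes by sequence, since none of its 75-base stretches occurred in another annotated transcript.

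Of the 4 tested ligands, 3 were lower with AS1842856 and 1 was higher, and 13 of the 17 ligands were not tested. CD70 (ENSG00000125726, chromosome 19 from 6583183 to 6604103) encodes the ligand of CD27, a costimulatory receptor of lymphocytes. Its levels were 139, 124 and 126 CPM in DMSO and 37.9, 42.5 and 42.7 CPM with AS1842856. The groups did not overlap, and CD70 fell with a log2 change of -1.66 (SE 0.05, adjusted p = 3.00e-87). TNFSF9 (ENSG00000125657, chromosome 19 from 6530999 to 6535928) encodes 4-1BBL, a costimulatory ligand of T cells. It had 17.3, 15.2 and 15.7 CPM in DMSO and 3.30, 4.82 and 3.59 CPM with AS1842856. Its fall was the larger of the pair, with a log2 change of -2.02 (SE 0.13, adjusted p = 1.23e-36).

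TNFSF12 (ENSG00000239697, chromosome 17 from 7548891 to 7557890) encodes TWEAK, the ligand of the receptor TNFRSF12A. The DMSO libraries had 2.46, 3.13 and 1.94 CPM and the AS1842856 libraries 0.660, 1.09 and 1.07 CPM. TNFSF12 fell without overlap, with a log2 change of -1.38 (SE 0.30, adjusted p = 2.85e-05). A readthrough transcript with the neighbouring ligand gene TNFSF13 shares 25.6% of the 75-base stretches of TNFSF12 and had 2 counts in all libraries together. TNFSF4 (ENSG00000117586, chromosome 1 from 173183734 to 173207313) encodes OX40L, a further costimulatory ligand of T cells. It had 0.683, 0.651 and 0.323 CPM in DMSO and 1.92, 1.23 and 1.46 CPM with AS1842856, values close to the filter. Every treated library lay above every control library, and the fitted log2 fold change was 1.44, given as a description because TNFSF4 passed the filter only through its treated group. The other 3 tested ligands of 17 were all called lower, as were 28.4% of all genes.

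Death-domain receptors moved apart from one another. FAS (ENSG00000026103, chromosome 10 from 88990582 to 89015785), the receptor of FASLG and a classical inducer of apoptosis, had 16.1, 12.5 and 14.6 CPM in DMSO and 46.6, 49.8 and 45.9 CPM with AS1842856. It rose in all 3 treated libraries, with a log2 change of 1.71 (SE 0.08, adjusted p = 3.08e-59). FAS overlaps the gene ACTA2 on the opposite strand over 8.93% of its exon bases, ACTA2 had 99.9% as many counts as FAS, and the strand setting of the counting is not given in the sources used here. ACTA2 averaged 32.9 ± 4.41 CPM in the controls and 29.4 ± 1.30 after treatment (SD, n = 3), in groups that overlapped. The fit called ACTA2 lower, with a log2 change of -0.17 (SE 0.07, adjusted p = 0.038), a call lost in DESeq2 (adjusted p = 0.2155).

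TNFRSF21 (ENSG00000146072, chromosome 6 from 47231532 to 47309905), or DR6, is a death-domain receptor best known in neurons and in T helper cells. Its levels were 55.1, 59.3 and 57.9 CPM in DMSO and 147, 141 and 139.9 CPM with AS1842856. It rose with a close spread, with a log2 change of 1.32 (SE 0.05, adjusted p = 1.42e-77). TNFRSF1A (ENSG00000067182, chromosome 12 from 6328757 to 6342114) is the main receptor of TNF on most cells. The receptor had 258, 244 and 248 CPM in DMSO and 187, 184 and 176 CPM with AS1842856. Here the treated libraries were all below the controls, with a log2 change of -0.46 (SE 0.04, adjusted p = 1.38e-25).

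Receptors of TRAIL sit side by side on chromosome 8. TNFRSF10B (ENSG00000120889, chromosome 8 from 23020133 to 23069179), or DR5, had 133, 129.6 and 129 CPM in DMSO and 123, 127 and 135 CPM with AS1842856. The groups overlapped and the gene was not called (-0.02 on the log2 scale, 95% interval -0.10 to 0.06, adjusted p = 0.705). TNFRSF10A (ENSG00000104689, chromosome 8 from 23190452 to 23225126), or DR4, was far less abundant. It had 1.05, 1.56 and 1.45 CPM in DMSO and 2.04, 2.63 and 2.47 CPM with AS1842856. The groups did not overlap, and TNFRSF10A rose with a log2 change of 0.84 (SE 0.28, adjusted p = 0.00681). This call was lost without DMSO library A (adjusted p = 0.0625) and in DESeq2 (adjusted p = 0.0534). A pair of noncoding genes on its opposite strand had 18 and 5 counts against its 212. TNFRSF10D (ENSG00000173530, chromosome 8 from 23135588 to 23164030), a decoy with a truncated death domain, had 24.0, 27.4 and 24.1 CPM in DMSO and 41.2, 46.5 and 43.6 CPM with AS1842856. All treated libraries lay above the controls, with a log2 change of 0.81 (SE 0.07, adjusted p = 3.84e-24). Of their 75-base stretches, 9.36% in TNFRSF10A, 0.0575% in TNFRSF10B and 0.115% in TNFRSF10D were found in another gene. TNFRSF10B shares 1.30% of its exon bases with RHOBTB2 on the opposite strand. TNFRSF10C, a decoy anchored by lipid, shared 31.9% of its stretches with other annotated genes and had 1 count in all.

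Of the 8 death-domain receptors, 6 were tested and 4 were called (3 higher and 1 lower), against 56% of all genes. TNFRSF25, or DR3, had 1.37, 0.260 and 1.02 CPM in DMSO and 0.900, 0.569 and 0.505 CPM with AS1842856. Its groups overlapped and it did not pass the test (adjusted p = 0.302).

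In the RANK system the receptor fell and the soluble decoy rose. TNFRSF11A (ENSG00000141655, chromosome 18 from 62325287 to 62391292), RANK itself, had 4.92, 5.99 and 5.54 CPM in DMSO and 0.840, 1.97 and 1.23 CPM with AS1842856. It was lower in every treated library, with a log2 change of -1.96 (SE 0.22, adjusted p = 1.29e-15). TNFRSF11B (ENSG00000164761, chromosome 8 from 118923557 to 118952200) encodes osteoprotegerin, a secreted decoy for the RANK ligand. It had 1.59, 0.716 and 1.83 CPM in DMSO and 9.90, 9.46 and 10.6 CPM with AS1842856. Osteoprotegerin mRNA rose, with a log2 change of 2.80 (SE 0.19, adjusted p = 1.05e-35), against control libraries of 35, 11 and 34 counts. The RANK ligand itself, TNFSF11, had 0 counts in all 6 libraries. Both tested decoy or soluble receptors, TNFRSF11B and TNFRSF10D, were thus called higher, as were 27.6% of all genes.

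**Figure D2:**
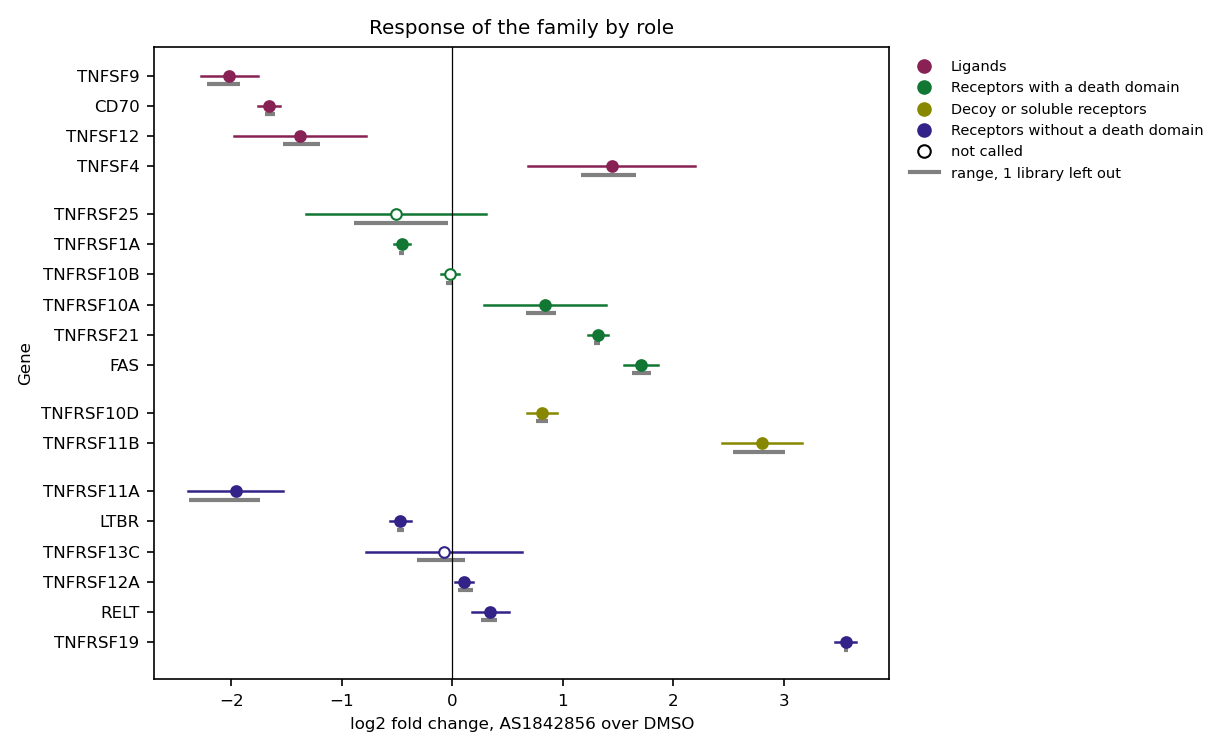
Log2 fold change of each tested member (x axis, AS1842856 over DMSO) with its 95% interval, grouped by role, and below it in grey the range when each library was left out in turn. Filled points were called (TNFRSF19 and TNFSF4 are drawn filled, but their values are descriptions). CD70, TNFSF9 and TNFSF12 lie below 0, and both decoys lie above it.

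Tested receptors without a death domain also included LTBR, RELT, TNFRSF12A and TNFRSF13C. LTBR (ENSG00000111321, chromosome 12 from 6375045 to 6391571), the lymphotoxin beta receptor, had 87.4, 86.7 and 87.3 CPM in DMSO and 63.1, 65.6 and 60.1 CPM with AS1842856. It fell without overlap, with a log2 change of -0.47 (SE 0.05, adjusted p = 3.67e-17). RELT (ENSG00000054967, chromosome 11 from 73376264 to 73397474), a receptor found mainly in blood cells, had 20.5, 17.5 and 20.2 CPM in DMSO and 23.8, 22.9 and 27.7 CPM with AS1842856. It rose modestly, with a log2 change of 0.35 (SE 0.09, adjusted p = 0.000190).

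TNFRSF12A (ENSG00000006327, chromosome 16 from 3018445 to 3022383), or Fn14, is the receptor of TWEAK. It had 168, 141 and 145 CPM in DMSO and 161, 162 and 166 CPM with AS1842856. DMSO library A lay above all treated libraries, so the groups overlapped, although the fit called a rise with a log2 change of 0.11 (SE 0.04, adjusted p = 0.0248). That call was lost in DESeq2 (adjusted p = 0.137), without a filter (adjusted p = 0.0925), in limma on log2 FPKM (adjusted p up to 0.294), and without DMSO library B, DMSO library C or AS1842856 library C (adjusted p = 0.325, 0.237 and 0.113). TNFRSF13C, the BAFF receptor of B cells, had 1.32, 1.24 and 0.700 CPM in DMSO and 0.960, 0.920 and 1.23 CPM with AS1842856. It overlapped and was not called (95% interval of the log2 fold change -0.78 to 0.63, adjusted p = 0.878). Of the 5 tested receptors without a death domain other than TNFRSF19, 4 were called (2 in each direction), against 56% of all genes.

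Levels of different genes were compared per length, as deposited FPKM (fragments per kilobase of exon, scaled to the reads of the library). In DMSO the order of levels began with CD70 at 84.0 ± 5.36 FPKM and TNFRSF12A at 81.3 ± 7.89 (SD, n = 3), whose libraries overlapped. TNFRSF1A followed at 62.0 ± 1.81, TNFRSF10B at 25.1 ± 0.469, TNFRSF21 at 15.9 ± 0.569 and LTBR at 13.8 ± 0.0799, each apart from its neighbours. Ranks are among the 18 tested members, and TNFRSF19 stood at rank 9 with 5.08 ± 0.170 FPKM, below TNFSF9 at 9.58 and TNFRSF10D at 7.06 and above FAS at 3.36. FAS overlapped RELT at 3.05, and TNFRSF11A, TNFRSF11B and TNFRSF10A, at 0.606, 0.485 and 0.456 FPKM, overlapped in turn.

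The order of levels with AS1842856 was different. TNFRSF12A came first at 87.7 ± 1.48 FPKM and TNFRSF19 second at 60.0 ± 1.26, followed by TNFRSF1A at 45.2 ± 1.47 and TNFRSF21 at 39.4 ± 1.05 (SD, n = 3). CD70 moved from rank 1 to rank 5 at 26.6 ± 1.74, where it overlapped TNFRSF10B at 24.8 ± 1.16. TNFRSF11B moved from rank 14 to rank 11 and TNFRSF11A from rank 13 to rank 18. With AS1842856 the untested members FASLG, TNFSF13, TNFSF13B, EDA2R and TNFRSF1B, at 0.332, 0.226, 0.196, 0.167 and 0.156 FPKM, had means above that of TNFRSF11A at 0.149. TNFRSF19 took between 1.51% and 1.71% of the FPKM summed over members in DMSO and between 17.8% and 18.7% with AS1842856. CD70 took between 26.4% and 27.1% in DMSO and between 7.49% and 8.34% with AS1842856. The sum itself lay between 302.8 and 332 FPKM in DMSO and between 328 and 332 with AS1842856.

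**Figure D3:**
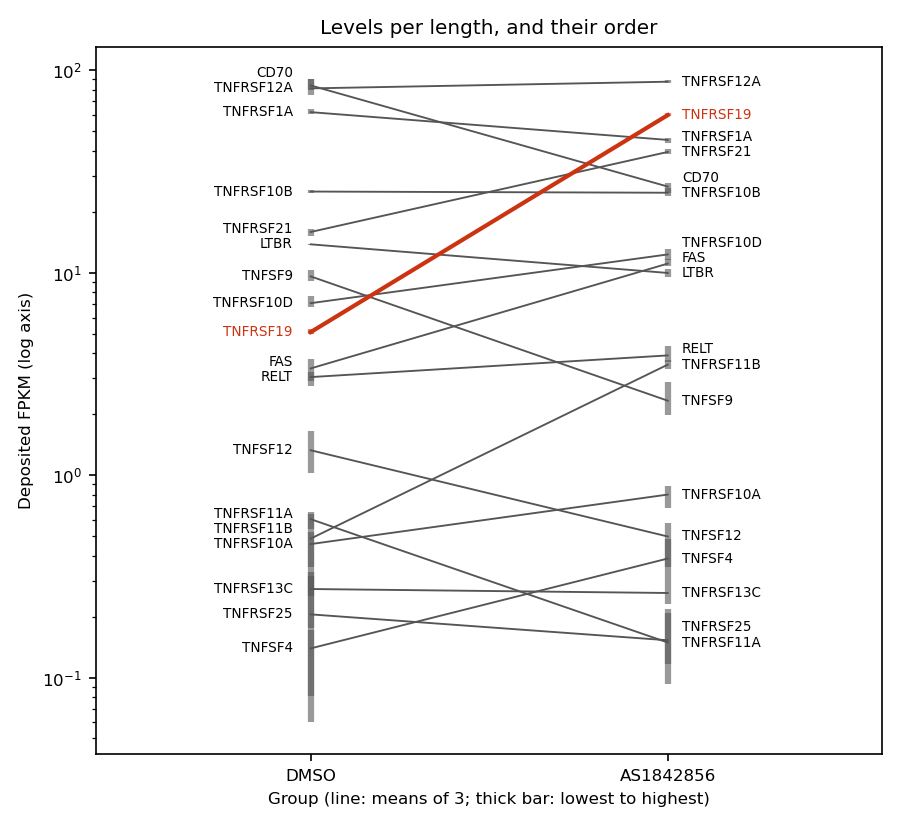
Deposited FPKM (log axis) of the tested members in DMSO and with AS1842856, with lines joining the means of 3 libraries and thick bars from the lowest to the highest library. TNFRSF19, in red, goes from 5.08 to 60.0 FPKM and from rank 9 to rank 2 among tested members, while CD70 goes from 84.0 to 26.6.

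The other 28 members did not pass the filter, and none had more than 25 counts in a library. Of these, 8 had 0 counts in every library: TNF, TNFSF8, TNFSF11, TNFRSF6B, TNFRSF8, TNFRSF13B, TNFRSF17 and TNFRSF18. At these depths a count of 0 allows up to 0.131 to 0.196 CPM per library, counting error only. TNFRSF6B lies wholly within the readthrough gene RTEL1-TNFRSF6B, which had 649 counts, so its 0 does not show that it was absent. A further 9 members had between 1 and 10 counts in all: the ligands EDA, LTA, LTB, TNFSF15 and TNFSF18 and the receptors CD27, EDAR, TNFRSF4 and TNFRSF10C. The last 11 had more than 10. Among them CD40 had 1 to 5 counts in a library, TNFRSF14 2 to 7, TNFSF14 3 to 8 and TNFSF13B, the BAFF ligand, 1 to 13. NGFR, a neurotrophin receptor with a death domain, had 4, 12 and 2 counts in DMSO and 7, 9 and 4 with AS1842856, and TNFSF13, or APRIL, had 6, 1 and 11 in DMSO and 1, 11 and 18 with AS1842856. Among the 20 members under the filter with any count, the groups did not overlap for 3, against 9.32% of all 13170 such genes.

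These were FASLG, TNFRSF9 and TNFRSF1B. Each reached the level of the filter in 0 DMSO libraries and in 2 AS1842856 libraries. They are named because their groups did not overlap. Fits without a filter reuse the same libraries, so their p-values are a description and no separate support. FASLG (ENSG00000117560, chromosome 1 from 172659018 to 172666874), the ligand of FAS, had 0 counts in each DMSO library and 3, 25 and 11 counts in AS1842856 libraries A, B and C. The mean of its treated libraries was 3.83 times the DMSO mean when 3 counts were taken as the floor of each DMSO library. As a description, FASLG rose in the fit without a filter (adjusted p = 6.77e-07), which called 2.7% of the 13170 genes under the filter. Its adjusted p also stayed under the threshold in all 6 fits that left out a library. The 3 counts in library A are themselves at the floor, so its level varied widely among treated libraries.

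TNFRSF9 (ENSG00000049249, chromosome 1 from 7915894 to 7943165), or 4-1BB, is the receptor of TNFSF9. It had 3, 0 and 0 counts in DMSO and 7, 16 and 17 counts with AS1842856. It rose in the fit without a filter (adjusted p = 7.03e-05) and with each library left out, a description as for FASLG. TNFRSF1B (ENSG00000028137, chromosome 1 from 12167003 to 12209228), the TNF receptor found mainly on immune and endothelial cells, had 2, 2 and 4 counts in DMSO and 8, 13 and 13 counts with AS1842856. It passed without a filter (log2 fold change 1.98, adjusted p = 0.0187) and did not pass without DMSO library A (adjusted p = 0.0874) or without AS1842856 library C (adjusted p = 0.0876). EDA2R, a receptor of ectodysplasin A2, had 2, 4 and 0 counts in DMSO and 3, 5 and 25 with AS1842856. Its groups overlapped, and library C alone was high. Without that library its adjusted p was 0.654, and with all 6 it was 0.00771, in fits without a filter given as a description.

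These genes are best known from immune cells, and the summed level of the leukocyte markers was also higher in every treated library. CD14 had 5 to 7 counts in DMSO and 7 to 19 with AS1842856, and ITGAM had at most 2. The part of these markers in the values of FASLG, TNFRSF9 and TNFRSF1B was not tested.

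**Figure D4:**
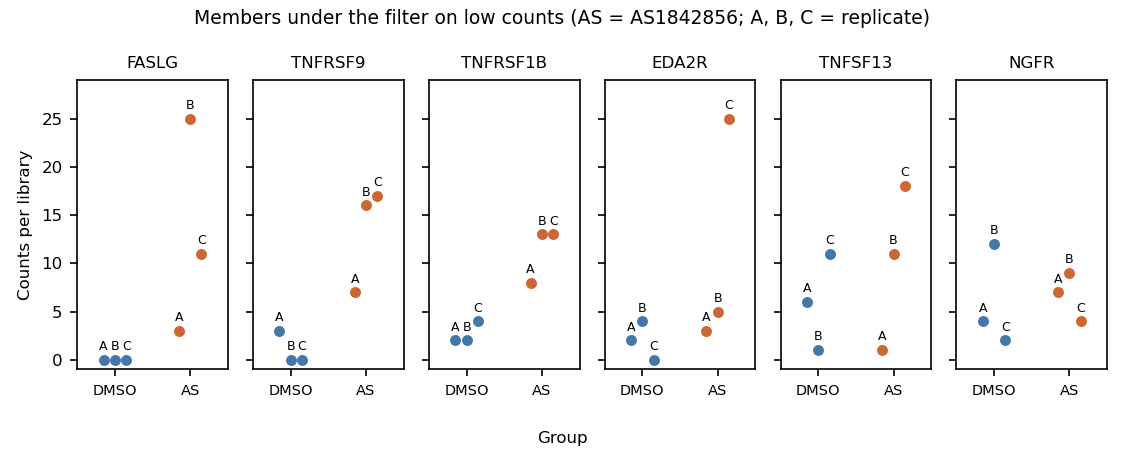
Deposited counts per library of 6 members under the filter, with letters for replicates. FASLG, TNFRSF9 and TNFRSF1B lie higher in all 3 AS1842856 libraries, EDA2R is high in library C alone at 25 counts, and TNFSF13 and NGFR overlap.

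Ligands and their receptors could be set side by side. CD70 was the most abundant ligand, while its receptor CD27 had 2 counts in all libraries together. TNFSF9 fell and its receptor TNFRSF9 rose from few counts. FASLG and FAS were both higher with AS1842856. TNFSF12 fell, and TNFRSF12A averaged 151 and 163 CPM. TRAIL itself, TNFSF10, which FOXO factors are known to induce in some cells, had 4, 1 and 0 counts in DMSO and 4, 3 and 0 with AS1842856, groups that overlapped. TNF was at 0 in every library while TNFRSF1A was abundant.

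Genes that carry, limit or shed the signals of the family were described from 5 lists. The lists were chosen with earlier results of these data known, so their shares of called genes are a description only. Of 52 genes, 43 were tested and 33 (76.7%) were called, against 56% of all genes. The calls split into 13 higher and 20 lower, and the median of the 43 was -0.08 on the log2 scale. In the death signalling list, 8 of 11 genes were tested and 6 called, 2 higher and 4 lower. CFLAR, which keeps caspase-8 from being activated at death receptors, averaged 51.0 ± 2.31 CPM in the controls and 29.7 ± 1.48 after treatment (SD, n = 3), with a log2 change of -0.78 (SE 0.06, adjusted p = 1.40e-25). RIPK3, needed for necroptosis, had 0 counts in every library.

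The TRAF and IAP list, of adaptors and inhibitors of apoptosis, had 10 of 11 genes tested. Of these, 8 were called (3 higher and 5 lower), against 56% of all genes. TRAF5, an adaptor of several receptors of the family, averaged 17.6 ± 1.66 CPM in the controls and 4.29 ± 0.933 after treatment (SD, n = 3), with a log2 change of -2.02 (SE 0.13, adjusted p = 2.95e-38). BIRC3, or cIAP2, an NF-kB target and a ubiquitin ligase at the TNF receptor, averaged 14.1 ± 2.30 CPM in the controls and 4.84 ± 0.600 after treatment, with a log2 change of -1.54 (SE 0.13, adjusted p = 1.64e-24). TRAF4, with 43.3 ± 1.94 CPM in the controls and 58.2 ± 2.96 after treatment, was the largest rise of the list, with a log2 change of 0.43 (SE 0.06, adjusted p = 1.01e-11).

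All 16 genes of the ubiquitin and kinase list were tested and 13 were called (6 higher and 7 lower), against 56% of all genes. MAP3K14 encodes NIK, the kinase of the non-canonical NF-kB pathway that LTBR, TNFRSF11A and TNFRSF12A can use. It averaged 94.3 ± 4.43 CPM in the controls and 27.0 ± 0.837 after treatment (SD, n = 3), with a log2 change of -1.80 (SE 0.06, adjusted p = 4.32e-86). CYLD, a deubiquitinase that limits NF-kB signaling, averaged 22.4 ± 1.33 CPM in the controls and 10.9 ± 0.575 after treatment, with a log2 change of -1.04 (SE 0.10, adjusted p = 4.03e-21). RNF31, the catalytic subunit of the linear ubiquitin ligase, averaged 30.2 ± 1.23 CPM in the controls and 38.2 ± 2.49 after treatment, with a log2 change of 0.34 (SE 0.07, adjusted p = 5.93e-06). RNF31 shares exon bases with PSME2 on the opposite strand, a gene with 298% as many counts.

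All 7 genes of the shedding list, proteases and helpers that shed ligands and receptors, were tested. Of these, 5 were called (2 higher and 3 lower), against 56% of all genes. RHBDF1, or iRhom1, which carries the TNF-releasing protease ADAM17 to the cell surface, averaged 24.0 ± 1.60 CPM in the controls and 13.6 ± 0.898 after treatment (SD, n = 3), with a log2 change of -0.81 (SE 0.09, adjusted p = 1.64e-15). FRMD8, which stabilizes iRhoms, averaged 74.1 ± 2.26 CPM in the controls and 91.6 ± 3.42 after treatment, with a log2 change of 0.30 (SE 0.05, adjusted p = 6.74e-09). Of the 7 genes of the Nogo receptor complex, in which TNFRSF19 can take part, 2 were tested. RTN4RL1, a relative of the Nogo receptor, averaged 8.46 ± 0.963 CPM in the controls and 4.11 ± 0.525 after treatment (SD, n = 3), with a log2 change of -1.05 (SE 0.15, adjusted p = 1.72e-10). RTN4, which encodes Nogo, had 374 ± 9.67 and 367 ± 11.0 CPM and was not called (adjusted p = 0.502). The Nogo receptor partner LINGO1 had 0 counts in all libraries.

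**Figure D5:**
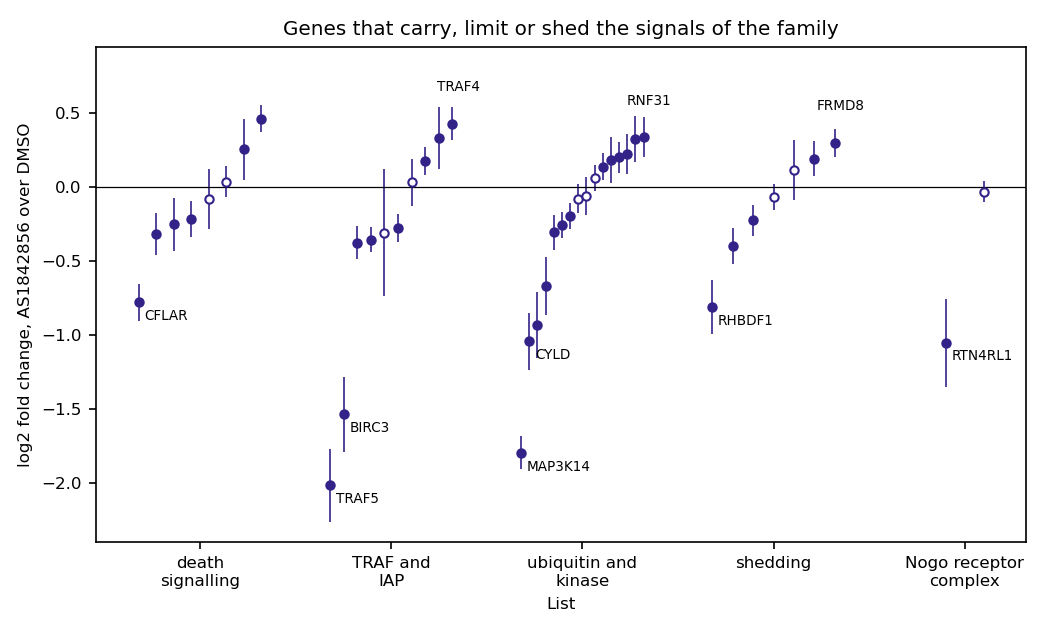
Log2 fold change (AS1842856 over DMSO) with its 95% interval for the 43 tested genes of the 5 signaling lists, ordered within each list, with filled points for genes called. TRAF5, BIRC3, MAP3K14, CYLD and RTN4RL1 lie below -1, and no gene of these lists lies above 1.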

How the data were processed

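RNA-Seq was measured in 6 libraries, 3 per treatment, grouped by the treatment label and lettered A to C by title. The authors deposited raw counts per gene, mapped with STAR according to the study's methods, and FPKM per gene, whose values for tested members matched lengths of merged exons in GENCODE 29. Submitters' processing notes name CASAVA, Bowtie 0.12.2, GRCh38 and hg38, which differs from the mapper in the methods. The counting tool, its strand setting and its annotation are not given in the sources used here. FPKM served for levels between genes and for limma alternatives on a log2 scale.

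Tests used edgeR 4.0.16 in R 4.3.3 (filterByExpr at min.count 10 and min.total.count 15, TMM, robust quasi-likelihood test, Benjamini-Hochberg over all 14338 genes tested). CPM were TMM-normalized. Standard errors were the fold change over the root of F, and 95% intervals assume a normal error. Alternatives were DESeq2 1.42.0, its size factors, no filter, a replicate block, limma 3.58.1 on log2(FPKM + 1) and log2(FPKM + 0.1) with a mean FPKM of at least 0.5 or no filter, and each library left out. Steps were tested on simulated data. Members, roles, lists and motifs were chosen with earlier results of these data known. Every tested member was named, and from each list the largest rise and fall among genes called and any called gene past 1 on the log2 scale. RTN4, RIPK3 and LINGO1 were chosen after their values were seen, and so were members under the filter that are named for their overlap. Library totals of 15289500 to 22981832 counts limit precision by counting error, and PCR reads are not independent molecules. Libraries within a group differed by more than sampling noise, so none was counted as a duplicate. Nothing states that they came from separate passages, so p-values measure the spread between these libraries. No exact permutation test of 3 against 3 can go below 0.1. Protein sequences were not used here, and a gene that this rule names and a marker are not reported here.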

Additional observations from a re-analysis of the deposited data

How the results depend on the processing

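The call count of the 17 tested members other than TNFRSF19 was 14, with TNFSF4 among them. It lay between 11 and 17 under alternatives that kept all libraries and between 13 and 17 when each library was left out, where fits without a filter or with a library left out also count members from outside the 17. Of the same 17 members, 11 to 14 were called with all libraries and 13 or 14 with a library left out. The 11 came from the filtered limma fits, in which TNFRSF11A, TNFRSF13C, TNFRSF25 and TNFSF4 were not tested. Members called lower numbered 6, or 5 in those limma fits, where TNFRSF11A was not tested. Over all genes 8029 were called, 6453 to 8030 under alternatives with all libraries and 7427 to 7678 with a library left out. Across the 17 members, 199 of 213 alternative values kept direction and side of the threshold, 10 lost a call and 4 changed sign. The sign changes were in uncalled members near 0: TNFRSF10B ranged from -0.0585 to 0.0064 with a library left out (positive without AS1842856 replicate A), and TNFRSF13C ranged from -0.3164 to 0.1139 (positive at 0.1139, 0.006 and 0.0148 without DMSO replicate A, DMSO replicate B and AS1842856 replicate B). The lost calls of TNFRSF12A and TNFRSF10A stand beside their values. Genes called in the death signalling list fell from 6 to 4 in DESeq2 and without DMSO replicate A. In the ubiquitin and kinase list they fell from 13 to as few as 10, in limma without a filter. The shedding list had 4 or 5 called and the TRAF and IAP list 7 or 8. For TNFRSF19 the log2 fold change was 3.33 on the log2(FPKM + 1) scale, where the pseudocount shrinks changes. The order of DMSO levels kept all 18 ranks by medians. It also kept them by CPM per kilobase, but those lengths were derived from the same FPKM, so this is no separate check.

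No shared effect of the replicate letter was seen: deviations of same-letter libraries correlated at 0.04204, -0.01203 and -0.003321 for A, B and C. Such correlations cannot show whether same-letter libraries were handled together. With the replicate block 7862 genes were called, and no tested member changed its call. Fits without a filter that left out a library, for FASLG, TNFRSF9, TNFRSF1B and EDA2R, were chosen after seeing the data. EDA2R called without a filter was lost in DESeq2 (adjusted p = 0.0627) and without DMSO replicate C (adjusted p = 0.0766).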

Other observations

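Genes named for TNF that belong to neither superfamily were looked at after the other values were seen. Among 11 C1q and TNF related genes, 6 were tested and 3 called, against 56% of all genes, and C1QTNF3, C1QTNF6 and C1QTNF12 were not. C1QTNF1, a secreted protein, averaged 12.1 ± 1.61 CPM in the controls and 20.2 ± 0.881 after treatment (SD, n = 3), with a log2 change of 0.74 (SE 0.10, adjusted p = 6.24e-12). C1QTNF9B, whose reads are uncertain because C1QTNF9 is a near-identical copy, had 0.228, 0.716 and 0.431 CPM in the controls and 2.34, 1.05 and 1.74 after treatment. It is among the 3 called but met the filter in 1 DMSO library and 3 AS1842856 libraries, so its values are a description. C1QTNF2 fell from 3.40 ± 0.333 to 1.84 ± 0.299 CPM, with a log2 change of -0.87 (SE 0.24, adjusted p = 0.000758).

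Of 7 genes named TNF alpha induced proteins, beside TNFAIP3, 4 were tested and 3 called, against 56% of all genes, and TNFAIP1 was not. TNFAIP8, known as a regulator of apoptosis, rose from 31.6 ± 1.77 to 53.1 ± 2.86 CPM (SD, n = 3), with a log2 change of 0.75 (SE 0.06, adjusted p = 6.16e-25). Its relative TNFAIP8L1 fell by a similar size, from 63.5 ± 0.826 to 37.9 ± 1.68 CPM, with a log2 change of -0.75 (SE 0.06, adjusted p = 3.24e-28). TNFAIP8L3 fell with a log2 change of -0.84 (SE 0.27, adjusted p = 0.00430), a call lost without AS1842856 replicate B (adjusted p = 0.0700). CD40LG, the ligand of CD40, is a ligand of the TNF superfamily that the symbol rule for members does not name. It had 0 counts in every library.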
